A study of Mus musculus with 4 samples.

Results

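The myosin heavy chain family was examined in cultured primary myoblasts of Tet2 KO and WT mice. The 10 genes Myh1, Myh2, Myh3, Myh4, Myh6, Myh7, Myh8, Myh9, Myh10 and Myh11 were taken by symbol from a deposited table of 24445 genes, and all 10 were found. The mice were C57BL/6, and per the study's methods males were used unless stated otherwise. Tet2 KO animals lacked exon 3 of Tet2, the gene of an enzyme that oxidises 5-methylcytosine in DNA, as a constitutive deletion, and WT animals carried the intact gene. In both groups satellite cells, which act as muscle stem cells, had been sorted from hindlimb muscle on surface markers (negative for CD45, CD11b, CD31 and Sca1, positive for CD34 and integrin a7), cultured on type I collagen in proliferation medium for at least 3 days and collected as MyoD+ myoblasts. RNA was sequenced in 2 libraries per group, and the number of animals behind each library was not given in the sources used here. The table gives 1 FPKM value per gene and group (fragments mapped per kilobase of transcript, scaled to the total mapped, a level per length), taken here to combine that group's libraries. The study's methods speak of comparisons between pairs of Tet2 KO and WT samples, so this reading is not certain. No spread between libraries could therefore be computed, no test was run, and every difference below compares 1 value with 1 value. Where a pair of FPKM values stands without group names, the Tet2 KO value comes first.

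A myosin heavy chain is the motor subunit of myosin II. It carries the ATPase head that pulls on actin and the coiled-coil tail that assembles into filaments, and light chains bind its neck. Skeletal muscle makes its sarcomeric heavy chains in a sequence. Myh3 (embryonic) and Myh8 (perinatal) mark newly formed and regenerating fibres, Myh7 gives the slow type and is shared with the heart, and Myh2, Myh1 and Myh4 give the fast types of adult fibres. Myh6 is the alpha heavy chain of the heart, Myh11 that of smooth muscle, and Myh9 and Myh10 are the non-muscle heavy chains with which nearly all cells build their cortex and stress fibres.

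In Tet2 KO myoblasts the sarcomeric heavy chains that were well expressed were 2.68 to 3.76-fold lower than in WT, whereas Myh9 and Myh10 were at nearly the same level in both groups. The comparison was made as a log2 ratio of Tet2 KO over WT after a pseudocount of 1 had been added to each FPKM, and a gene was called when it had a mean FPKM of at least 1 and a ratio past 2-fold. The mean of both groups reached 1 FPKM in 7 of the 10 genes. Of these 5 were called lower (Myh1, Myh8, Myh3, Myh7 and Myh2) and 0 were called higher. Among all 11692 genes at that mean level 142 were called lower, 1.21%, and 243 were called higher, 2.08%. Myh2 reached the mean level only through its WT value, so it could be kept only by being the lower one in the knockout. The 7 genes had a median log2 ratio of -1.35, beside -0.0044 for all 11692 genes.

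**Figure D1:**
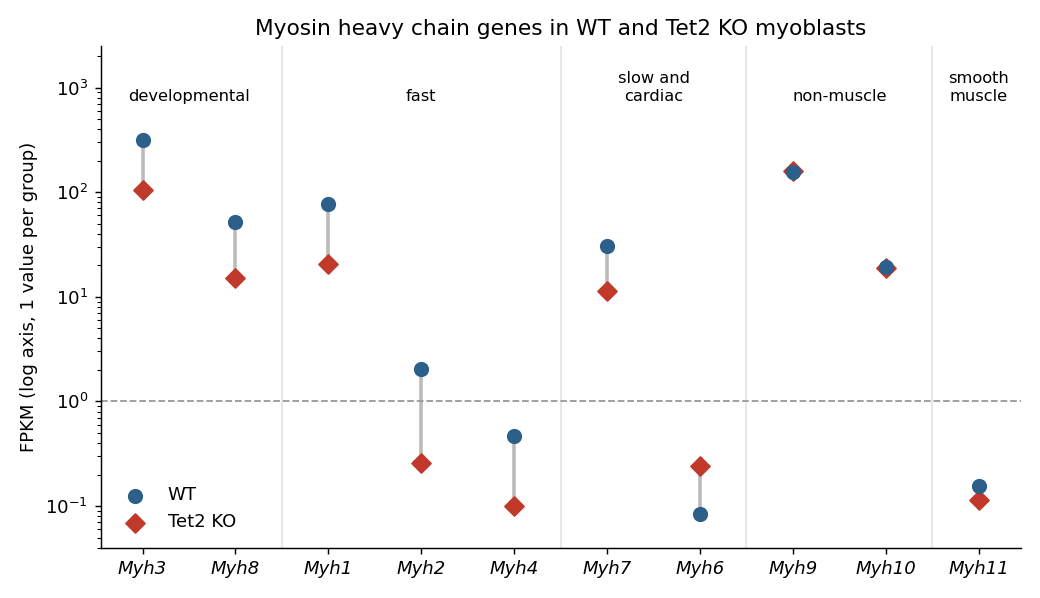
FPKM of the 10 heavy chain genes (log axis) in WT (circles) and Tet2 KO (diamonds) myoblasts, 1 value per group without error bars, and a dashed line at 1 FPKM. Myh3, Myh8, Myh1 and Myh7 lie lower in Tet2 KO, from 105 against 313 FPKM for Myh3 to 11.4 against 30.4 FPKM for Myh7, while the symbols of Myh9 and of Myh10 overlap.

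The labels were checked against markers. Tet2 itself had 5.79 FPKM in Tet2 KO against 6.64 in WT, and since this value covers all exons it does not show the deleted exon. All 7 myoblast markers were expressed in both groups, and none was called, with log2 ratios from -0.27 for Des to 0.28 for Vcam1. Of the 10 leukocyte markers, all were higher in Tet2 KO and 8 were called higher, with log2 ratios from 0.94 to 2.07 and a summed level of 468 FPKM in Tet2 KO against 119 in WT. Lyz2, the lysozyme of macrophages and neutrophils, had 253 and 59.5 FPKM, and none of the 10 was at 0 in either group, although per the labels the sort had removed CD45+ and CD11b+ cells. The part of this difference in the heavy chain values was not tested. In RNA from a whole culture, fewer cells that express a heavy chain and less of its RNA per cell cannot be told apart. Of the 7 smooth muscle markers 3 had a mean FPKM of at least 1 and none was called (summed level 167 FPKM in Tet2 KO against 260 in WT). Of the 6 fibroblast markers 5 reached that level and none was called, but 4 of the 5 were higher in Tet2 KO (summed level of the list 189 FPKM in Tet2 KO against 167 in WT), with Dcn at 7.04 and 3.15 FPKM and a log2 ratio of 0.95 and Pdgfra at 1.91 and 1.06 FPKM. Postn was lower, at 6.05 and 8.95 FPKM. The part of these markers in the heavy chain values was not tested. Of the 5 endothelial markers 1 reached that level, and it was not called.

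The start regions of the genes are shown before the single values, because 4 genes of the chromosome 11 cluster hold a stretch in common. Of these Myh1, Myh2 and Myh8 were called lower, Myh2 being kept only through its WT value, and Myh4 was below the level used for calls. Sequences of 250 bases before the transcript start were available from RefSeq (build GRCm38.p6) for 9 of the 10 genes. They were found unchanged once on the matching chromosome of mm9, and coordinates below are mm9. Printed stretches stop where the most upstream exon of the mm9 annotation begins. In the first 4 sequences capitals mark a run of 14 bases that the fast and perinatal genes share.

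Myh1, chr11:67013354-67013553, plus strand: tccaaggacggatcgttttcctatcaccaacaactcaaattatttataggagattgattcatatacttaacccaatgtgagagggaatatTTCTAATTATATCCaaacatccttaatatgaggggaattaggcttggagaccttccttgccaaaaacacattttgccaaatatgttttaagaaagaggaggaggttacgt
Myh2, chr11:66984279-66984528, plus strand: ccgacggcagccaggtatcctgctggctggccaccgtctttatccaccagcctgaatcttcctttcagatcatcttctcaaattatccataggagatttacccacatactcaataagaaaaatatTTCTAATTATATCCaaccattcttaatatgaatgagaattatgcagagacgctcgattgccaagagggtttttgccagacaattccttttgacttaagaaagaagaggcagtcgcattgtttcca
Myh4, chr11:67051064-67051313, plus strand: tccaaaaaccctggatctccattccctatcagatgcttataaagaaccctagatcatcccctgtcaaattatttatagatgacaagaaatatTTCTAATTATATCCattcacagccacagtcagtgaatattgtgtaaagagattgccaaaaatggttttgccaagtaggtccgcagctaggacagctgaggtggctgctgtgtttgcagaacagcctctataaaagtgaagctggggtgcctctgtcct
Myh8, chr11:67090376-67090625, plus strand: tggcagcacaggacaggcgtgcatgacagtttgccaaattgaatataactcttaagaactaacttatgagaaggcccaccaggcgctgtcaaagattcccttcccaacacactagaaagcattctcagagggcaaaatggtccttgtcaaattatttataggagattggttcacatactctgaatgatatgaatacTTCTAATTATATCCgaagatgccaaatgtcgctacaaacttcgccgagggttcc

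The run TTCTAATTATATCC was the longest stretch common to Myh1, Myh2, Myh4 and Myh8, and these were 4 of the 4 promoters that hold it among 32851 in the RefSeq table (0.0122%). This run and those below were picked from these promoters, so that they hold them was fixed in advance. Runs of such length can be rare in any case, so their absence elsewhere says little, and how often others recur was not tested. Between Myh1, Myh2 and Myh4 it extends to 20 bases, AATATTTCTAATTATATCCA, which were found in 3 promoters of the table. A separate run of 15 bases, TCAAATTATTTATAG, was shared by Myh1, Myh4 and Myh8 and also occurred in 3 promoters. The runs lay at different distances from the transcript start. The 14 bases began 160 bases before it in Myh1, 125 in Myh2, 158 in Myh4 and 54 in Myh8.

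The start regions of Myh3 and Myh7, the lowered genes without that run, are set beside that of Myh9, the abundant heavy chain that was not lower. For Myh7 the stretch before the more upstream annotated start is printed. The stretch before its other start, which abuts the measured locus ending at 55613386, is not printed, but its motifs are counted below. Capitals mark the E-box letters CANNTG, a class that includes sites of MyoD and myogenin, and the letters TATAAA of the TATA box, each on either strand. Matches were marked at any position, not every CANNTG is a site of those factors, and binding was not measured here.

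Myh3, chr11:66891552-66891801, plus strand: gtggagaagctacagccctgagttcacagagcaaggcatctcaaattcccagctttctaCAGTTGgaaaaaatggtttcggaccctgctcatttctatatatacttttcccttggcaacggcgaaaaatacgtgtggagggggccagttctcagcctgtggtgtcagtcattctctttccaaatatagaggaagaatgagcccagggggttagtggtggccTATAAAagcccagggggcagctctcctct
Myh7, chr14:55613472-55613713, minus strand: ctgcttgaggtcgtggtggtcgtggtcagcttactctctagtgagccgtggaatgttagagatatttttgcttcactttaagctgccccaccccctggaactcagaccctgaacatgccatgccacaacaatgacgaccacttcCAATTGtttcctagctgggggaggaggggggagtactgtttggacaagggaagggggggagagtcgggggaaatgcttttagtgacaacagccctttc
Myh9, chr15:77672606-77672855, minus strand: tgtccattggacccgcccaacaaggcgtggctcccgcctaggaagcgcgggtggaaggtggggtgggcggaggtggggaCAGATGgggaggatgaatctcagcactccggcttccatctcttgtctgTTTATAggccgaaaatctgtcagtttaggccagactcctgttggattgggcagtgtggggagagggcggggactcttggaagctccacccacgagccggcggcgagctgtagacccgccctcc

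The letters CANNTG occurred once in Myh3, Myh6, Myh8, Myh9 and the printed Myh7 stretch, 2 times in Myh4 and Myh10 and 2 times before the other annotated start of Myh7, and 66.2% of all 32851 promoters of the table hold them. They were not found in the 250 bases before Myh1 or Myh2. The narrower form CAGCTG, in 13% of all promoters and counted within CANNTG as well, was found in Myh4 and Myh10. TATAAA, in 12.4% of promoters, was found in Myh1, Myh3, Myh4, Myh8 and Myh9 when either strand and any position counted. Counted from the transcript start, it began at -32 in Myh1, -29 in Myh3 and -31 in Myh4 on the strand of the gene. Myh8 and Myh9 held only the opposite strand form TTTATA, at -96 and -123. A MEF2 motif, in 2.92% of promoters, was found in Myh1, Myh4 and Myh8, where it overlaps TATAAA letters, and a CArG motif, in 1.47%, was found in Myh4. The letters CATTCC of the MCAT element, in 12.6% of promoters, occurred in Myh1, Myh4, Myh6 and Myh10 and in the second annotated start region of Myh7, whose upstream part is printed above. The windows also differed in composition. GC content was 36.0% in Myh1, 41.2% in Myh2, 42.0% in Myh4, 42.4% in Myh8 and 49.2% in Myh3, beside a median of 52.4% over all promoters. It was 57.2% and 52% before the starts of Myh7, a gene that was also called lower, 59.2% in Myh6, 62.4% in Myh9 and 62.8% in Myh10. CpG dinucleotides, the substrate of DNA methylation, numbered 1 in Myh4, 2 in Myh6, 3 in Myh1, 4 in Myh3, 6 in Myh2 and in Myh8, 2 and 5 before the starts of Myh7, 14 in Myh9 and 15 in Myh10, with a median of 6.

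Of the developmental genes Myh3 was the most abundant sarcomeric heavy chain in both groups, while Myh8 stood behind the fast gene Myh1. Myh3, which lies on chromosome 11 of mm9 from 66891802 to 66915793 on the plus strand with 41 exons in its longest annotated transcript, had 313 FPKM in WT against 105 in Tet2 KO, a log2 ratio of -1.56. It held rank 276 among the 24445 genes in WT and rank 879 in Tet2 KO. Of the 11692 genes at the level used for calls, 27 had a lower ratio. Myh8, at 67090626 to 67122135 on the same chromosome, had 52.1 FPKM in WT against 15 in Tet2 KO, a log2 ratio of -1.73, and 17 genes had a lower ratio. Myh3 was thus 6.00 times as high as Myh8 in WT and 7.01 times as high in Tet2 KO.

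Among the fast genes Myh1 was the one with a substantial level. Myh1 encodes the IIX heavy chain, and its locus runs from 67013616 to 67050783 on chromosome 11. It had 77.1 FPKM in WT against 20.5 in Tet2 KO, and its log2 ratio of -1.86 was the lowest in the family on this scale, although without a pseudocount Myh2 (-2.97) and Myh4 (-2.23) were lower than Myh1 (-1.91). Among these genes, 12 of 11692, or 0.103%, had a lower ratio. The table gives an antisense RNA gene, Myhas, the same span as Myh1. It had 4.93 FPKM in WT against 1.53 in Tet2 KO, and because the library kit does not mark strand, reads of Myh1 and Myhas in the overlap cannot be told apart.

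Myh2, the IIA heavy chain, had 2.02 FPKM in WT against 0.258 in Tet2 KO. Its log2 ratio was -1.26 with the pseudocount, and the ratio of the values themselves was 0.127, so the pseudocount understated the difference. Myh4, the IIB heavy chain of the fastest fibres, had 0.472 FPKM in WT against 0.101 in Tet2 KO. The ratio of the values was 0.213, but the log2 ratio with the pseudocount was -0.42 and the gene was below the level used for calls.

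The slow and cardiac genes lie next to each other on the minus strand of chromosome 14. Myh7, from 55587624 to 55613386, had 30.4 FPKM in WT against 11.4 in Tet2 KO, a log2 ratio of -1.35, and 60 genes had a lower ratio. Myh6, from 55560758 to 55585444, went the other way at a level far below 1 FPKM, with 0.0835 FPKM in WT against 0.242 in Tet2 KO. It is not called under the rule. None of the 6 cardiac markers examined (Nppa, Nppb, Tnni3, Myl7, Nkx2-5 and Myl3) had a mean FPKM of 1, and Myl7 was listed at 0 in both groups.

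The non-muscle genes served as the comparison within the family. Myh9 (chromosome 15, minus strand, 77591015 to 77672605) had 160 FPKM in Tet2 KO against 155 in WT, a log2 ratio of 0.04. Myh10, which lies at 68505417 to 68630126 of chromosome 11 and so outside the cluster of skeletal genes, had 19.0 and 19.1 FPKM, a log2 ratio of -0.01. Myh9 was 8.44 times as high as Myh10 in Tet2 KO and 8.12 times as high in WT. The smooth muscle gene Myh11, on chromosome 16 from 14194620 to 14291501, was low in both groups, with 0.114 FPKM in Tet2 KO against 0.155 in WT.

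**Figure D2:**
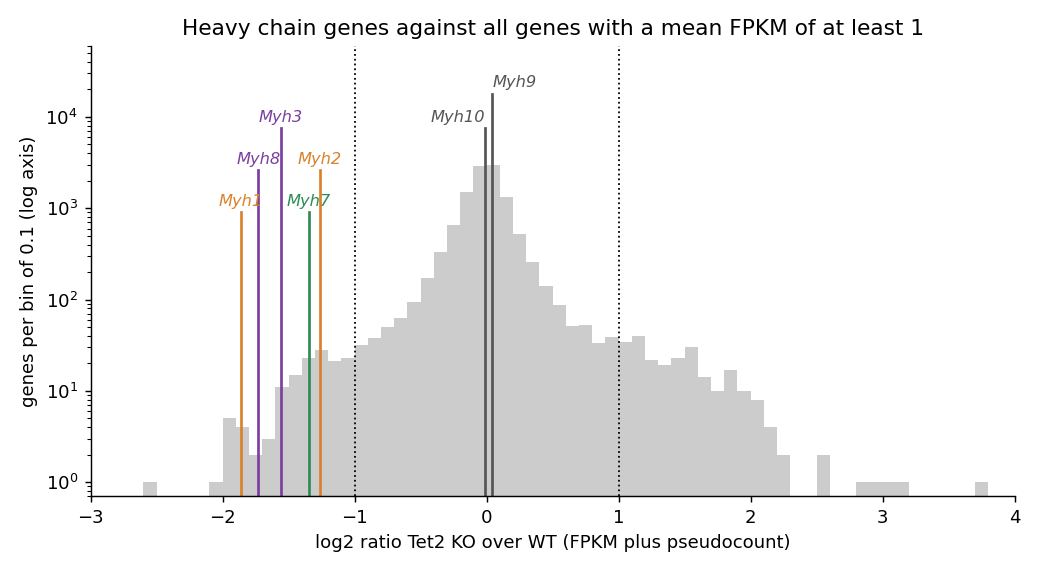
Distribution of the log2 ratio Tet2 KO over WT (FPKM plus pseudocount) over the 11692 genes that reach a mean of 1 FPKM (grey bars, counts on a log axis), with the 7 heavy chain genes that reach that level as vertical lines and dotted lines at 2-fold. The line of Myh1 stands at -1.86 and that of Myh2 at -1.26, while Myh10 and Myh9 stand at -0.01 and 0.04 at the centre of the distribution; 8 genes beyond the axis are not drawn.

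The number of fragments behind the low values was estimated from the table itself. In genes with a single annotated transcript of 3 to 8 kb, FPKM multiplied by transcript length in kilobases fell near whole multiples of 0.0188 in Tet2 KO and of 0.0185 in WT. Of the values of at most about 5 steps, 85.5% and 91.6% lay within 0.2 steps of a whole multiple. The step was set from the same values, so part of this fit was built in. A window of 0.2 steps on either side also takes in part of any even spread. The counts and intervals below rest on this estimate. Read as the worth of 1 fragment, these steps correspond to 53100000 and 53900000 fragments per group, and the depth of single libraries was unknown. On this scale Myh4 rested on about 32 fragments in Tet2 KO and 153 in WT, Myh6 on about 78 and 27, Myh11 on about 40 and 55 and Myh2 on about 83 and 663. Exact 95% intervals of the ratio Tet2 KO over WT, which cover counting error only and not the spread between animals, ran from 0.14 to 0.31 for Myh4, from 1.9 to 4.7 for Myh6, from 0.10 to 0.16 for Myh2 and from 0.48 to 1.1 for Myh11. A difference in Myh11 was therefore not detectable at this depth.

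The fragments of the sarcomeric genes are not fully separable by sequence. The coding sequences of Myh1 and Myh2 were 90.9% identical, those of Myh1 and Myh4 90.1%, those of Myh1 and Myh8 89.1% and those of Myh6 and Myh7 91.6%. Myh3 stood further off, at 80.1% to Myh1 and 80.6% to Myh8, and Myh9 was 55% identical to Myh1. As a measure of how much of a gene could be read as another, every stretch of 100 bases was searched in the coding sequences of the other heavy chain genes with up to 2 mismatches. A match was found for 33.4% of the stretches of Myh1, 32.4% of Myh2, 23.2% of Myh4, 22.6% of Myh8, 31.4% of Myh6 and 31.5% of Myh7. The share was 6.41% for Myh3, 1.28% for Myh9 and 1.25% for Myh10. Myh2, Myh4 and Myh6 are low genes with abundant near copies (Myh1 for the former pair, Myh7 for Myh6), so their values are uncertain. How many of their fragments came from those copies was not tested.

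The amount of sarcomeric heavy chain RNA was lower in Tet2 KO, while the order of its main genes was the same in both groups. Summed over the 7 sarcomeric genes it was 475 FPKM in WT against 153 in Tet2 KO, a log2 ratio of -1.63, whereas the summed non-muscle genes had 174 FPKM in WT against 179 in Tet2 KO, a log2 ratio of 0.04. The sarcomeric sum was thus 2.72 times the non-muscle sum in WT and 0.854 times in Tet2 KO. Myh3 gave 65.8% of the sarcomeric sum in WT and 68.9% in Tet2 KO. Myh1 gave 16.2% and 13.4%, Myh8 11% and 9.83% and Myh7 6.40% and 7.43%. The fast genes together went from 16.8% in WT to 13.6% in Tet2 KO, a difference of -3.11 percentage points, while the developmental genes differed by 1.95 and the slow and cardiac genes by 1.16 points. No error is available for these shares.

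**Figure D3:**
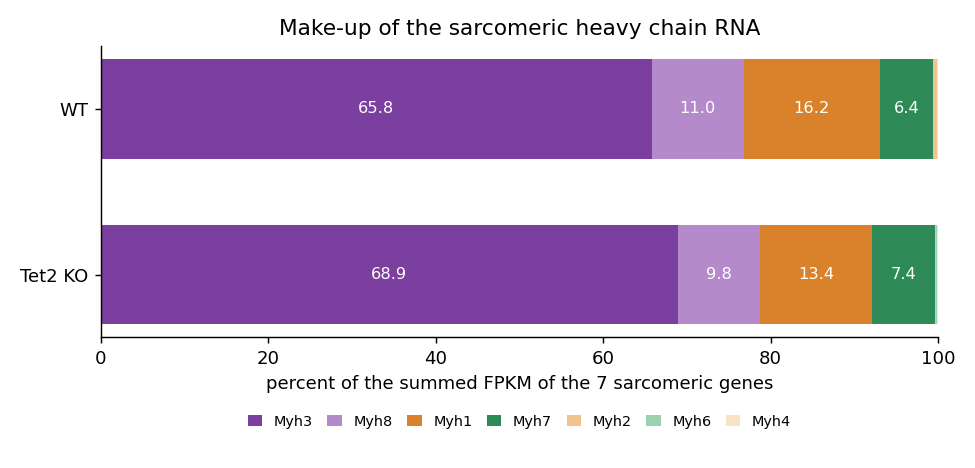
Percent of the summed FPKM of the 7 sarcomeric heavy chain genes given by each gene, in WT (upper bar) and Tet2 KO (lower bar), 1 value per group. Myh3 fills 65.8% and 68.9% of the bars, followed by Myh1 with 16.2% and 13.4%, so the order of the 4 main genes is the same in both groups.

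Along chromosome 11 the skeletal genes stand in the order Myh3, Myh2, Myh1, Myh4, Myh8 and Myh13, within about 293 kb from the start of Myh3. Of these Myh2 reaches a mean of 1 FPKM only through its WT value, so it could be kept only by being the lower one in the knockout. The 4 skeletal genes of the cluster that reach that mean, Myh2 among them, were called lower, beside 1.21% of all genes at that level. The genes on either side with a mean FPKM of at least 1, chosen for their position after the values had been seen, did not differ to that extent. Sco1, which ends at -10.9 kb on the scale from the start of Myh3, had 11.1 FPKM in Tet2 KO against 12.4 in WT. Adprm, further out, had 9.42 and 12.8 FPKM, a log2 ratio of -0.41, beside a 5th percentile of -0.40 over all genes at that level. Tmem220, still further out and below that level, had 0.368 and 0.709 FPKM. Gas7, on the far side, had 1.74 and 1.20 FPKM. Myh13, whose product is the heavy chain of extraocular muscle, was at 0.00636 FPKM in Tet2 KO against 0.0703 in WT, which corresponds to about 2 and 23 fragments. Of the other heavy chain genes of the table, Myh7b had 0.344 and 0.688 FPKM and Myh14, a further non-muscle gene, had 0.189 and 0.252 FPKM. Myh15 was at 0.0058 and 0.00292 FPKM, about 1.9 fragments against 1, so no direction can be read for it.

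**Figure D4:**
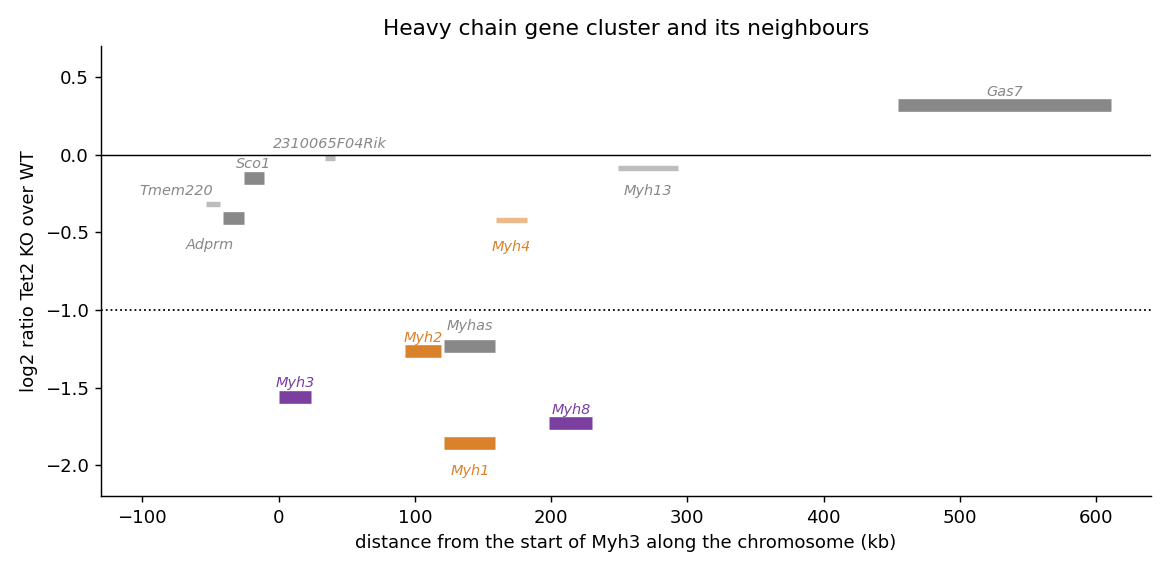
Log2 ratio Tet2 KO over WT of the genes of the chromosome 11 heavy chain cluster and its neighbours against their distance in kb from the start of Myh3, each gene drawn over its span, with thin bars for genes with a mean FPKM under 1 and a dotted line at 2-fold. Myh3, Myh2, Myh1 and Myh8 lie between -1.86 and -1.26 and the neighbours Adprm, Sco1 and Gas7 between -0.41 and 0.32; the antisense gene Myhas is given the same span as Myh1 in the table.

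The light chains that pair with the heavy chains were examined next. For this list and those that follow, 1.21% of all 11692 genes were called lower and 2.08% higher. The lists were chosen with earlier results of these data known, so their counts are descriptions only. Of the 6 sarcomeric light chain genes 3 had a mean FPKM of at least 1 and all 3 were called lower. Mylpf, the fast regulatory light chain, had 321 FPKM in Tet2 KO against 790 in WT, a log2 ratio of -1.30. Myl4, the embryonic essential light chain, had 274 and 681 FPKM (log2 ratio -1.31), and Myl1, the fast essential light chain, had 150 and 348 FPKM (log2 ratio -1.21). Myl2 and Myl3, the slow and ventricular light chains, were under 1 FPKM in both groups. Heavy chain RNA per light chain RNA, taken as the ratio of the sarcomeric sums in FPKM, was 0.261 in WT and 0.205 in Tet2 KO. Among the 5 genes listed here as light chains of non-muscle and smooth muscle myosin 1 was called lower, Myl6b, with 4.87 FPKM in Tet2 KO against 13.2 in WT (log2 ratio -1.28). Myl6b is not confined to those myosins, so its value is not one of non-muscle myosin alone. Myl9, a regulatory light chain of smooth muscle and non-muscle myosin, had 66.7 and 120 FPKM (log2 ratio -0.83). Myl6 (674 and 732 FPKM), Myl12a (236 and 252 FPKM) and Myl12b (44.1 and 44.9 FPKM) had log2 ratios of -0.12, -0.09 and -0.03, so all 5 lay below 0.

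Genes of other thick filament proteins were examined as well. Of the 9 genes of that list 7 had a mean FPKM of at least 1, and 6 of these were called lower and 0 higher, with a median log2 ratio of -1.14. Myom2, which crosslinks thick filaments at the M-band, had 10.2 FPKM in Tet2 KO against 38.5 in WT (log2 ratio -1.82). Mybph, a myosin binding protein, had 27.6 and 82.0 FPKM (log2 ratio -1.54). The exception was Ttn, the gene of the giant spring titin, with 56.2 and 108 FPKM and a log2 ratio of -0.93, just short of a call. Of the 4 chaperones of myosin folding 1 was called lower. Unc45b, the muscle form, had 6.33 FPKM in Tet2 KO against 13.8 in WT, whereas Unc45a, a form not confined to muscle, had 18.8 and 19.6 FPKM.

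Genes of fast fibres that work beside Myh1, Myh2 and Myh4 were all called lower, 8 of 8, beside 1.21% of all genes, with a median log2 ratio of -1.29. This list includes Myl1 and Mylpf. The lowest ratios were those of Casq1, the calcium buffer of the sarcoplasmic reticulum (1.76 FPKM in Tet2 KO against 9.59 in WT, log2 ratio -1.94), and Tnnc2, the fast troponin C (36.1 and 140 FPKM, log2 ratio -1.92). Of the 8 genes of slow fibres, 6 had a mean FPKM of at least 1 and 3 were called lower, with a median log2 ratio of -0.86. Casq2 had 28.7 and 87.4 FPKM (log2 ratio -1.57). Tnnc1 and Tnni1 were called as well, with log2 ratios of -1.28 and -1.19. Tnnt1, the slow troponin T, had 259 and 375 FPKM (log2 ratio -0.53, not called), and Tpm3 and Atp2a2 had log2 ratios of -0.11 and -0.11. Tpm3 and Atp2a2 are not confined to slow fibres, and values per gene do not separate their transcripts, so the median of this list mixes unlike genes. Whether the fast and the slow list differ was not tested.

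Of 12 regulators known to act on heavy chain genes 2 were called lower, with a median log2 ratio of -0.27. Myog, the gene of myogenin, had 268 FPKM in Tet2 KO against 554 in WT (log2 ratio -1.04), and Mef2c had 11.1 and 27.8 FPKM (log2 ratio -1.26). Myod1 had 313 and 336 FPKM. The listed non-muscle contractile partners, a list without the light chains, were mostly at similar levels in both groups. The non-muscle and smooth muscle light chains given above all lay below 0, and 1 of those 5 was called lower. Mylk, at 0.715 and 1.08 FPKM, was in the contractile list but below the level used for calls. Of the 11 genes of that list with a mean FPKM of at least 1, none was called, with log2 ratios from -0.21 for Ppp1r12a, the targeting subunit of myosin phosphatase, to 0.29 for Actn4. Of 15 unconventional myosins with that level 1 was called lower, Myo18b, a muscle myosin with 1.61 FPKM in Tet2 KO against 4.50 in WT. The 2 called higher, Myo1f (4.85 and 1.16 FPKM) and Myo1g (2.77 and 0.695 FPKM), are class I myosins of blood cells. Myo1g reached the mean level only through its Tet2 KO value, so it could be kept only by being the higher one in the knockout.

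**Figure D5:**
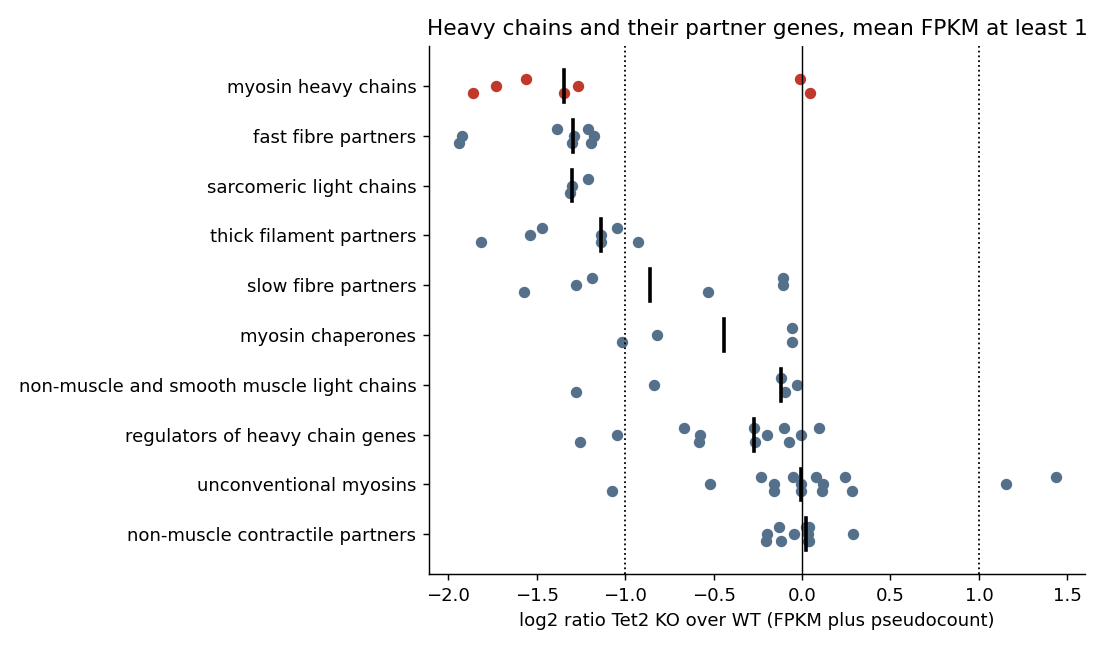
Log2 ratio Tet2 KO over WT of the heavy chain genes (top row, red) and of 9 lists of partner genes, 1 point per gene with a mean FPKM of at least 1, a black bar at each median and dotted lines at 2-fold. The medians run from -1.35 for the heavy chains, -1.30 for the sarcomeric light chains and -1.29 for the fast fibre list to -0.0034 for the unconventional myosins and 0.02 for the non-muscle contractile partners.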

How the data were processed

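RNA of cultured mouse myoblasts was measured in 2 Tet2 KO and 2 WT libraries. Per the study's methods and the submitters' processing notes (CASAVA, FastQC), the authors trimmed the read pairs, aligned them to mm9 with TopHat2 2.0.13 and computed FPKM with Cuffdiff 2.2.1; the gene annotation they used was not given in the sources used here. The deposited table gives 1 FPKM value per gene and group, read here as combining the group's libraries; the methods speak of sample pairs and leave the way of combining libraries unstated. Its fold change, test statistic, p-value, q-value and significance columns hold the authors' comparison and were not used. From the FPKM values the log2 ratio of Tet2 KO over WT was computed with a pseudocount of 1, calls needed a mean FPKM of at least 1 and a 2-fold difference, and FPKM were summed within classes. This scale understates the change of low genes. There is no replicate check. Starts were raised by 1, since the table counts from 0. Transcripts and exons came from GENCODE vM1 (mm9); coding sequences were aligned with mafft 7.526. The named genes are the 10 members, the other heavy chain genes, the highest and lowest ratio of each list, its most abundant gene, and the light chain, chaperone and thick filament genes where grouped. Members and lists were chosen with earlier results of these data known. The arithmetic of calls and intervals was checked on simulated data. Alternatives were other pseudocounts, filters, folds and scalings, leaving out genes and adding heavy chain genes. Computations used numpy 2.4.6 with scipy 1.17.1 and pandas 2.3.3 in Python 3.11.15, and plots used matplotlib 3.10.9.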

Additional observations from a re-analysis of the deposited data

How the results depend on the processing

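Of 134 values recomputed under other settings, 121 stayed within 1.5-fold of the reported ratio or count or within 5 percentage points of the reported share, and 0 changed direction among called values. The pseudocount decided the low genes. With a pseudocount of 0.1 the log2 ratio was -2.57 for Myh2, -1.51 for Myh4 and 0.90 for Myh6, and without one it was -2.97, -2.23 and 1.54. The number of heavy chain genes called lower was 2 at 3-fold. Over the whole table, 215 genes were called lower with a pseudocount of 0.1, 338 lower and 435 higher at 1.5-fold, 25 lower and 81 higher at 3-fold, and 109 higher at a mean FPKM of at least 5. The summed sarcomeric log2 ratio was -1.75 without Myh3. The limit of 5 points is wider than any reported difference in share, so it says little about them: without Myh3 the difference Tet2 KO minus WT was 5.16 points for Myh7 (1.02 with it) and -4.35 for Myh1 (-2.82 with it). No paired analysis was possible because the table gives 1 value per gene and group, and leaving out a library could not be done for the same reason. Depth limits Myh4, Myh6, Myh11, Myh13 and Myh15.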
